A study of Mus musculus with 8 samples.

Results

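The genes described here encode the actin cytoskeleton and its regulators that are known or proposed to be under the control of myocardin related transcription factors (MRTFs) and serum response factor (SRF). They are 59 genes named by symbol, taken as the rows of the 2 raw count tables that carry those symbols, out of 53735 rows in all. The list was drawn up with earlier results of these data known. Of the 59 members, 55 passed the filter on low counts and were tested among 14418 genes, and Actg2, Cnn1, Fhl1 and Fhl2 did not pass it.

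RNA-seq was performed on 8 libraries of bone marrow derived macrophages (BMDMs), which are macrophages grown in culture from bone marrow cells over 7 days. The donors were WT (Mkl1+/+, Apoe-/-) and KO (Mkl1-/-, Apoe-/-) male mice of 6 months, so that every group lacked Apoe, and all had received angiotensin II (Ang II) from minipumps at 1.44 mg/kg/day for 7 days before the marrow was taken. Experiment 1 held WT libraries 1 and 2 and KO libraries 5 and 6, and experiment 2 held WT libraries 3 and 4 and KO libraries 7 and 8. The knockout is global, there was no group without Ang II or with intact Apoe, and the labels do not say whether each library came from its own mouse, so p-values measure only the spread between libraries.

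MKL1, also called MRTFA, is held in the cytoplasm by binding to monomeric actin. When monomers are consumed by filament growth, it moves to the nucleus and acts with SRF at a DNA element called the CArG box, so that the state of the cytoskeleton feeds back on genes for actin and its partners. In macrophages these proteins serve spreading, migration and engulfment, whereas a smaller subset (Acta2, Actg2, Cnn1, Tagln, Myl9, Tpm1, Tpm2 and Fhl1) is best known from differentiated smooth muscle.

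CArG boxes were searched by their consensus, which reads the same on both strands, in RefSeq promoter sequences from 250 bases before to 50 bases after each start site (GRCm38.p6). Actb, Actg2, Coro1b, Cotl1 and Tagln were not searched. Of the other 54 members, 9 held a box (16.7%), beside 488 of 27025 genes (1.81%) and 1.63% of all 32851 promoters. The windows below are shown because they place the element beside members described below, with the box in capitals, 5′ to 3′ on the strand of the gene, and they end before the start site.
Actg1 (chr11:120348556-120348605, minus strand): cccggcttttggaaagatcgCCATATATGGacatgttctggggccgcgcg
Vcl (chr14:20929151-20929200, plus strand): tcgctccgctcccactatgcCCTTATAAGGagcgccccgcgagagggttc
Lima1 (chr15:99820167-99820216, minus strand): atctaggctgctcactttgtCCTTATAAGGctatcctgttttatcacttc
Cnn2 (chr10:79988524-79988573, plus strand): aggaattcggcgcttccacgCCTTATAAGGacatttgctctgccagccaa
Myl6 (chr10:128493030-128493079, minus strand): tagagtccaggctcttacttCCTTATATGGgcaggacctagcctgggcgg
Myl9 (chr2:156775283-156775332, plus strand): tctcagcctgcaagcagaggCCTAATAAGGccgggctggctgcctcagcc
The box began 90 bases before the RefSeq start site of its window in Actg1, 227 in Vcl, 47 in Lima1, 56 in Cnn2, 50 in Myl6 and 161 in Myl9. In Lima1 and Myl6 that start site is an internal one, downstream of the 5′ end of the gene in GENCODE. Arpc4, Fhl1 and Fhl2 were the other searched members with a box. As given below, Actg1 and Vcl were lower in KO in each experiment, Lima1 was lower in experiment 1, Cnn2 and Myl6 were lower in experiment 2, and Myl9 changed in opposite directions. A match of these letters is a description of the sequence and not a measured binding site.

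The libraries held between 33977799 and 41584540 counts. Mkl1, the targeted gene (chromosome 15), ranged from 25.6 to 29.5 CPM (counts scaled to library size) over the WT libraries. KO libraries 5 and 6 were at 19.5 and 20.9 CPM, and KO libraries 7 and 8 at 14.6 and 10.4 CPM, so that its reads were lower in every KO library and were not absent. Across all 14418 genes the SD of the log2 difference between group means was 0.38 when WT of experiment 1 was set against KO of experiment 2, beside 0.81 for the WT groups and 0.86 for the KO groups. Over the members, too, that pair was the closest of the 6 pairs of groups, with an SD of 0.59, beside 0.79 between the WT groups and 1.57 between the KO groups. The macrophage markers Lyz2, Adgre1, Csf1r and Cd68 were present in every library, with Csf1r in KO library 8 as the lowest of these at 751 CPM. Itgam, Fcgr1, Cd14 and Mrc1 were at 114 CPM or more in every library. The others in the list of 10 were lower, Mertk down to 19.7 CPM in WT library 4 and F13a1 at 0 counts there and at most 5.13 CPM. The 10 markers summed to between 15995 and 36465 CPM. Lyz2 alone had 23927 CPM in WT library 1, which held the highest sum. Markers of fibroblasts and stroma summed to 284 and 352 CPM in KO libraries 5 and 6 and to between 6.02 and 28.3 CPM in the other 6. Neutrophil markers summed to at most 1.52 CPM and those of megakaryocytes and platelets to at most 2.97 CPM in a library. In such bulk libraries, fewer cells of a type and less RNA per cell cannot be told apart.

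Summed together, the members took up a smaller share of the counts in KO, a share in which the most abundant genes weigh most. In WT libraries 1 to 4 they held 4.06%, 3.99%, 4.03% and 4.06% of all counts. KO libraries 5 and 6 gave 2.66% and 2.76%, and KO libraries 7 and 8 gave 3.24% and 3.14%. The KO libraries thus lay below all WT libraries in both experiments, and the decrease was the larger in experiment 1. The members summed to between 39773 and 43340 CPM in WT libraries and between 25559 and 32689 CPM in KO libraries. Actb alone went from a mean of 9845 to 5095 CPM in experiment 1 and from 12468 to 5916 CPM in experiment 2. Vim, in contrast, had a mean of 2146 CPM in WT and 3360 CPM in KO of experiment 2. Levels per kb of exon were highest for Actb, followed by Tmsb4x and Vim, in WT of experiment 1, at 3675, 2695 and 673 CPM per kb, and lowest for Cnn1, which was listed at 0 there.

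Log2 fold changes of KO against WT are given with their standard error (SE) and the adjusted p of edgeR's quasi-likelihood test, which covers all genes tested. In experiment 1, 32 of the 55 tested members were lower in KO (58.2%) at an adjusted p under 0.05, while 28.1% of all genes tested were lower. A further 12 members were higher (21.8%), beside 27.0% of all genes. In experiment 2, 18 members were lower (32.7%), beside 8.29% of all genes, and 2 were higher (3.64%), beside 7.52%. Over the tested members the median log2 fold change was -0.32 and then -0.30, with 0.01 over all genes in each experiment. With any 1 library of experiment 2 left out, fewer members and fewer of all genes were called lower there. The median log2 fold change of the members was between -0.39 and -0.25 in those fits. The plot of fold changes by role shows both experiments for every tested member.

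**Figure D1:**
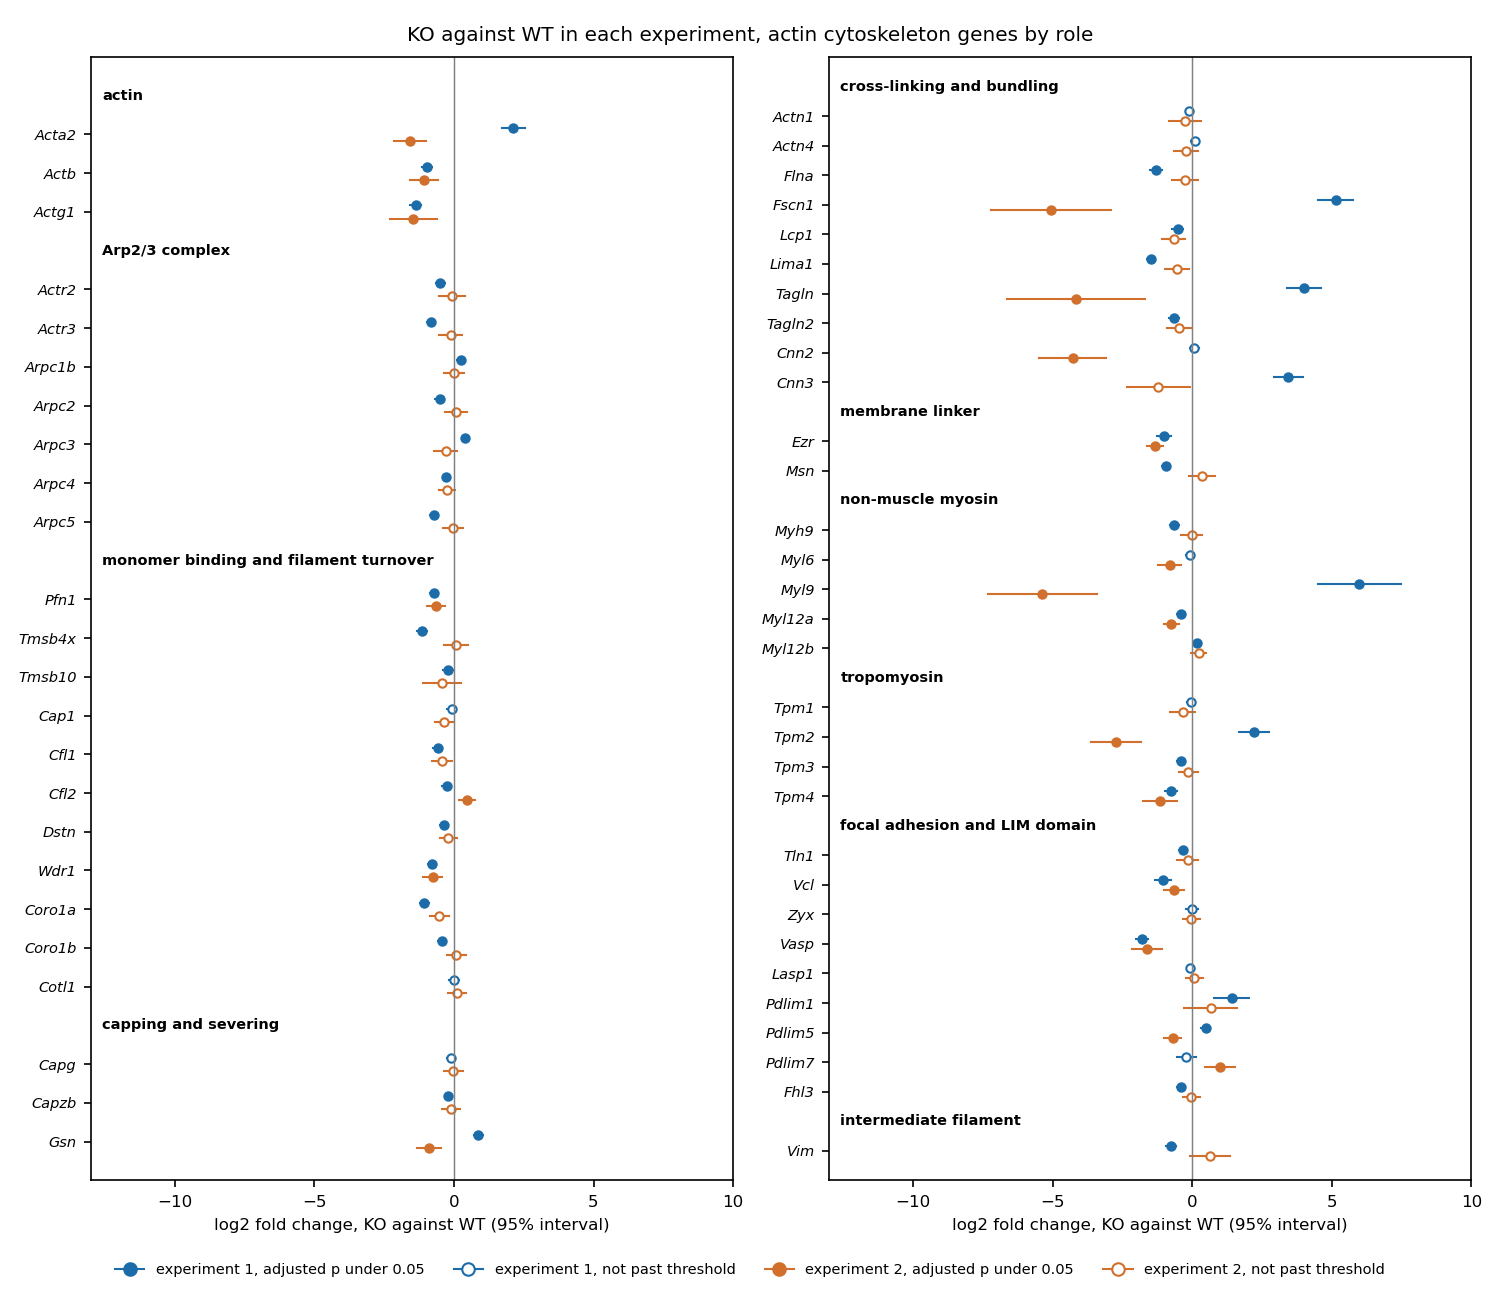
Log2 fold change of KO against WT (x axis, 95% interval as a line) for the 55 tested members grouped by role, in experiment 1 (blue) and experiment 2 (orange). Filled points passed an adjusted p under 0.05, which 44 members did in experiment 1 and 20 in experiment 2.

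Past the threshold in both experiments and in the same direction were 9 members, all lower in KO, which is 16.4% of the members tested and compares with 2.25% of all genes. They were Actb, Actg1, Pfn1, Wdr1, Ezr, Myl12a, Tpm4, Vcl and Vasp. The count was 2 without WT library 3, 4 without WT library 4, 3 without KO library 7 and 0 without KO library 8. No member was higher in each by edgeR, beside 2.13% of all genes, and the count was also 0 at an unadjusted p under 0.05 and by DESeq2. A further 7 members were higher in experiment 1 and lower in experiment 2 (12.7%, beside 3.23%), and Cfl2 alone was lower and then higher (1.82%, beside 3.11%). Among the 7, Myl9 passed the filter only through the groups where it was high. By the interaction test, 25 members responded differently in the 2 experiments (45.5%), close to the 41.6% of all genes. With both experiments in 1 fit, 14 members were lower (25.5%, beside 3.41%) and none was higher, beside 3.72% of all genes. The 14 were the 9 above with Cfl1, Coro1a, Lcp1, Lima1 and Tagln2, and Actb, Ezr, Pfn1, Vasp and Wdr1 kept their calls without any 1 library. Myl12b and Pdlim1 were higher in that fit at an unadjusted p under 0.05, and the same 2 were called by DESeq2.

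Independently of any fit, all 4 KO libraries fell below all 4 WT libraries for 19 members (34.5%), beside 6.26% of all genes. Myl12b was the only member with every KO library above every WT library, beside 6.46% of all genes.

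Of the 4 actin genes, the cytoplasmic pair Actb and Actg1 fell in KO in both experiments. Actb, cytoplasmic beta actin and the most abundant member, had 9996 and 9694 CPM in WT libraries 1 and 2 and 4929 and 5261 CPM in KO libraries 5 and 6. In experiment 2 it had 13573 and 11362 CPM in WT libraries 3 and 4 and 6360.1 and 5472 CPM in KO libraries 7 and 8. The groups did not overlap, and KO stood at 51.8% of WT in experiment 1 and 47.5% in experiment 2, with log2 fold changes of -0.96 (SE 0.08, adjusted p = 4.17e-05) and -1.08 (SE 0.20, adjusted p = 0.0289). Actg1, cytoplasmic gamma actin, had 168 and 144 CPM in WT and 58.6 and 63.1 CPM in KO of experiment 1, and 173 and 179.9 against 84.7 and 43.5 CPM in experiment 2. Here too all 4 KO libraries lay below all 4 WT libraries, with KO libraries 7 and 8 far from each other. Its log2 fold changes were -1.37 (SE 0.08, adjusted p = 1.31e-05) and -1.46 (SE 0.32, adjusted p = 0.045).

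Acta2, smooth muscle alpha actin, behaved otherwise. It had 2.68 and 3.11 CPM in WT and 10.9 and 14.6 CPM in KO of experiment 1, a rise with a log2 fold change of 2.13 (SE 0.18, adjusted p = 4.44e-05). In experiment 2 it had 5.40 and 6.64 CPM in WT and 1.98 and 2.06 CPM in KO, which corresponds on the log2 scale to -1.57 (SE 0.23, adjusted p = 0.0174). KO was the higher genotype in one experiment and the lower in the other, without overlap within either. Actg2, smooth muscle gamma actin, was at 7 counts or fewer in each library and was not tested. Actin genes resemble each other and their processed copies closely (11 pseudogenes like Actg1 and 4 like Actb by sequence), and how shared reads were assigned is not given in the sources used here.

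**Figure D2:**
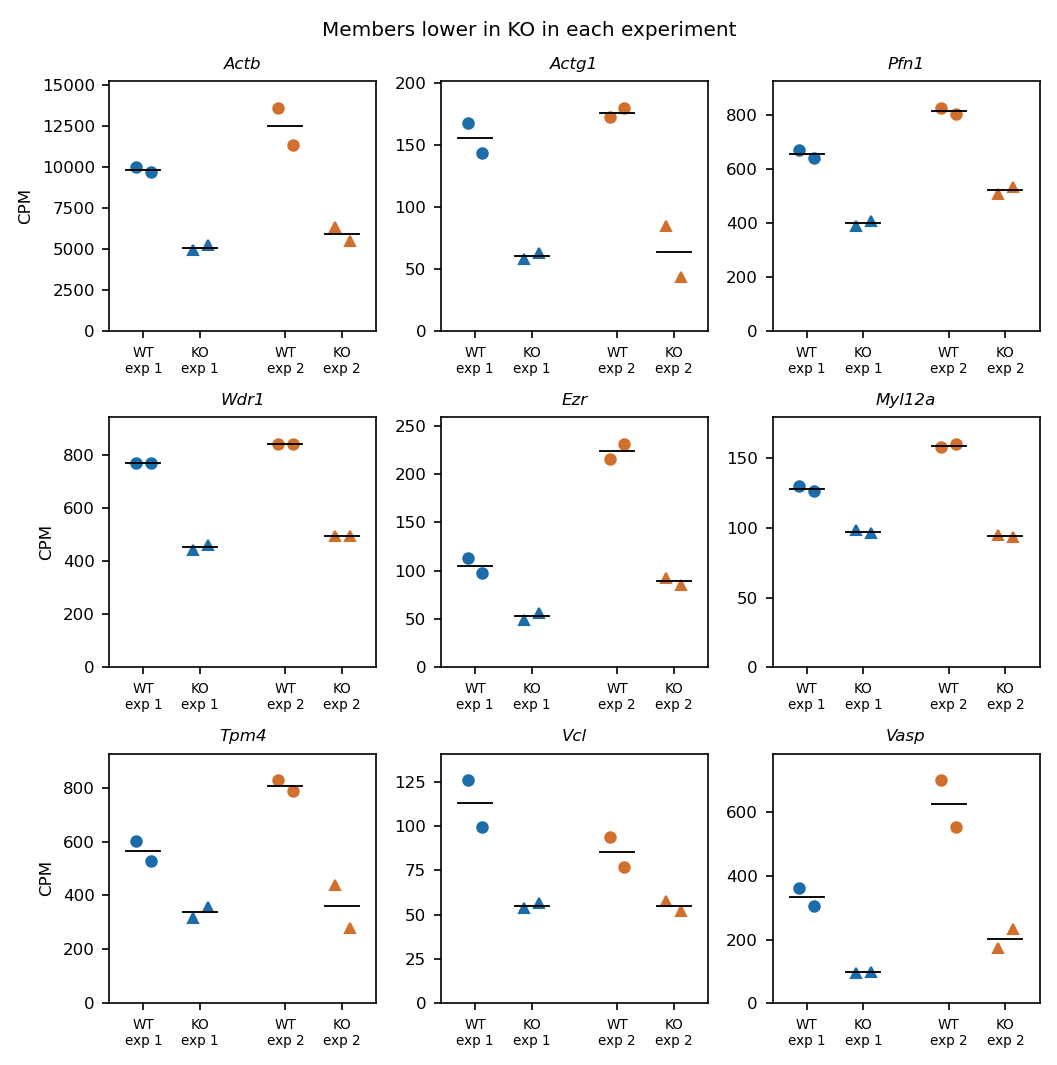
CPM (y axis, from 0) of the 9 members lower in KO in each experiment, with 1 point per library (circles WT, triangles KO) and a bar at the mean of each pair. For each of the 9 genes all 4 KO points lie below all 4 WT points, and Actb falls from between 9694 and 13573 CPM in WT to between 4929 and 6360 CPM in KO.

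The Arp2/3 complex nucleates branched filaments, and its 7 subunit genes all passed the threshold in experiment 1, with 5 of them lower, while 28.1% of all genes were lower and 27.0% higher. The 5 were Actr2 and Actr3, the actin-related pair, at -0.49 and -0.82 on the log2 scale, and the subunits Arpc2, Arpc4 and Arpc5 at -0.51, -0.27 and -0.72. The remaining pair rose, Arpc1b by 0.24 and Arpc3 by 0.41. In experiment 2 the edgeR count was 0 of 7 in either direction, beside 8.29% of all genes lower and 7.52% higher, as it was at an unadjusted p under 0.05 and by DESeq2, and the median log2 fold change was -0.08. The difference between the experiments itself passed for Actr3, Arpc2, Arpc3 and Arpc5, beside 41.6% of all genes, and of these Arpc5 alone kept that call without each library in turn. The rise of Arpc1b was lost when all 4 groups were put in 1 fit and without WT library 1 or KO library 5. Arpc4 was the only subunit of the 7 with every KO library below every WT library, beside 6.26% of all genes. It had between 215 and 229 CPM in WT and between 178 and 202 CPM in KO.

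Genes for monomer binding and filament turnover were lower in KO for 9 of 11 members in experiment 1 and for 2 of 11 in experiment 2, beside 28.1% and 8.29% of all genes. Those lower in each were Pfn1, profilin, which delivers monomers to growing ends, and Wdr1, which helps cofilin to disassemble filaments. Pfn1 had 669 and 641 CPM in WT and 392 and 408 CPM in KO of experiment 1, and 825 and 805 against 509 and 533 CPM in experiment 2. Wdr1 had 769 and 769 CPM in WT and 444 and 461 CPM in KO, and then 840.3 and 841 against 494 and 496 CPM. Replicates of both genes lay close together, and KO of Wdr1 stood at 58.8% and 58.9% of WT. The log2 fold changes of Pfn1 were -0.72 (SE 0.06, adjusted p = 4.65e-05) and -0.65 (SE 0.13, adjusted p = 0.0342). Those of Wdr1 were -0.78 (SE 0.06, adjusted p = 2.92e-05) and -0.76 (SE 0.13, adjusted p = 0.0238).

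Tmsb4x, thymosin beta 4, which holds monomers in reserve, fell only in experiment 1, at -1.14 on the log2 scale against 0.08 (adjusted p = 0.769) in experiment 2, and the difference passed the interaction test (adjusted p = 0.00158). Also lower in experiment 1 were Tmsb10, its relative, the severing factors Cfl1 and Dstn, and the coronins Coro1a and Coro1b. Coro1a, the coronin of blood cells, was at 48.4% and 69.3% of WT, with no overlap of the genotypes and an adjusted p of 0.0572 in experiment 2. Cfl2, the cofilin of muscle, had 28.6 and 28.3 CPM in WT and 24.1 and 23.7 CPM in KO of experiment 1, and 20.3 and 20.2 against 27.3 and 28.8 CPM in experiment 2. Its log2 fold change went from -0.26 (SE 0.07, adjusted p = 0.0143) to 0.47 (SE 0.11, adjusted p = 0.0476). The first call was lost under upper-quartile scaling and without WT library 1 or 2, and that of Tmsb10 was lost under upper-quartile scaling, with DESeq2, with at least 10 counts in every library, in 1 fit of 4 groups and without WT library 2 or KO library 5. Cap1, which recycles monomers, and Cotl1, a filament binding protein, passed in neither experiment.

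Among the 3 capping and severing genes, Gsn, gelsolin, was the one with opposite changes. Gsn had 405 and 380.4 CPM in WT and 720.2 and 734 CPM in KO of experiment 1, and 698 and 719 against 424 and 329 CPM in experiment 2. These amount to log2 fold changes of 0.88 (SE 0.07, adjusted p = 1.98e-05) and -0.91 (SE 0.17, adjusted p = 0.028). Capzb, a subunit of capping protein, was lower in experiment 1 by a log2 fold change of -0.20, a call lost under upper-quartile scaling, in 1 fit of 4 groups and without WT library 1 or 2 or KO library 6. Capg, a macrophage capping protein, had values of -0.10 and -0.02 that did not pass.

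Of 10 tested cross-linking and bundling genes, 4 were lower and 3 higher in experiment 1, near the 28.1% and 27.0% of all genes, and 3 were lower in experiment 2, beside 8.29%. Flna, filamin A, was lower in experiment 1 at -1.31 on the log2 scale, with -0.25 in experiment 2 (adjusted p = 0.395). Lima1, which stabilises filament bundles, had 150.2 and 162 CPM in WT and 59.2 and 54.2 CPM in KO of experiment 1, and 90.8 and 123 against 75.6 and 69.6 CPM in experiment 2. The genotypes did not overlap, but only the first of its log2 fold changes, -1.47 (SE 0.07, adjusted p = 2.70e-06) and -0.56 (SE 0.17, adjusted p = 0.0858), passed. Lcp1, the plastin of leukocytes, and Tagln2, the transgelin of blood cells, were lower in experiment 1 at -0.52 and -0.66. The alpha-actinins Actn1 and Actn4 passed in neither.

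Fscn1, fascin, which bundles filaments in filopodia, showed wide swings from low levels. It had 0.295 and 0.147 CPM in WT and 7.65 and 8.71 CPM in KO of experiment 1, and 7.04 and 3.68 against 0.293 and 0.0240 CPM in experiment 2. On the log2 scale the changes were 5.14 (SE 0.27, adjusted p = 4.45e-06) and -5.06 (SE 0.84, adjusted p = 0.0246). The log2 fold change of Fscn1, experiment 2, was -7.62 without KO library 7 and -4.18 without KO library 8. Cnn2, the calponin of non-muscle cells, had 25.7 and 26.4 CPM in WT and 28.2 and 27.1 CPM in KO of experiment 1, a difference that did not pass. In experiment 2 it had 38.7 and 49.0 CPM in WT and 3.24 and 1.27 CPM in KO, the largest fall of any member above 10 CPM, with a log2 fold change of -4.28 (SE 0.46, adjusted p = 0.0123). Cnn3, acidic calponin, rose from 0.639 and 1.06 to 8.89 and 9.56 CPM in experiment 1 and had 1.37 and 1.35 against 0.805 and 0.360 CPM in experiment 2. The first difference passed at 3.45 (SE 0.22, adjusted p = 1.08e-05) and the second did not, at -1.22 (SE 0.45, adjusted p = 0.125).

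Ezr, ezrin, and Msn, moesin, link filaments to the plasma membrane. Ezr had 113 and 97.4 CPM in WT and 48.9 and 56.7 CPM in KO of experiment 1, and 216 and 231 against 92.3 and 85.7 CPM in experiment 2. WT libraries 3 and 4 were the high ones, well above WT libraries 1 and 2, and KO lay below WT in each. KO against WT gave log2 fold changes of -1.01 (SE 0.10, adjusted p = 0.000259) and -1.33 (SE 0.12, adjusted p = 0.00664). Msn, the more abundant of the pair per kb, fell in experiment 1 at -0.93 and had 0.35 in experiment 2 (adjusted p = 0.239), a difference that passed the interaction test (adjusted p = 0.00203).

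Of the 5 non-muscle myosin genes, Myl12a, a regulatory light chain, was lower in each experiment. It had 129.7 and 126 CPM in WT and 98.5 and 95.8 CPM in KO of experiment 1, and 158 and 159.8 against 95.1 and 93.7 CPM in experiment 2. The KO libraries were close to one another, between 93.7 and 98.5 CPM. Its log2 fold changes were -0.41 (SE 0.06, adjusted p = 0.00044) and -0.75 (SE 0.10, adjusted p = 0.016). Myl12b encodes a near-identical light chain and went the other way in experiment 1, at 0.19 (SE 0.06, adjusted p = 0.0244), with 0.24 in experiment 2 (adjusted p = 0.193). Its annotated span overlaps that of Myl12a on the same strand, and how reads shared by these genes were assigned is not given in the sources used here. The first call of Myl12b was lost with no filter, in 1 fit of 4 groups and without WT library 2 or KO library 5.

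Myh9, the heavy chain of non-muscle myosin IIA, was lower in experiment 1 at -0.64 and had -0.02 in experiment 2. Myl6, the essential light chain, was lower in experiment 2 at -0.81 and had -0.09 in experiment 1. Myh9 lies 3.17 Mb from Mkl1 and Lima1 18.6 Mb, both on chromosome 15, and their place near the targeted gene cannot be told apart from the genotype.

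Tropomyosins wrap filaments and set which myosins reach them. Tpm4 had 603 and 529 CPM in WT and 316 and 359 CPM in KO of experiment 1, and 827 and 786 against 439 and 279.8 CPM in experiment 2. The genotypes did not overlap, with log2 fold changes of -0.76 (SE 0.09, adjusted p = 0.000298) and -1.17 (SE 0.24, adjusted p = 0.0345). Tpm3 was lower in experiment 1 at -0.40. Tpm1, with 123 and 131 CPM in WT and 120.4 and 127 CPM in KO and then 129 and 172 against 126 and 112 CPM, passed in neither, at -0.05 and -0.34, and the former was 0.05 under upper-quartile scaling.

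Focal adhesion and LIM domain genes held the largest fall that both experiments shared. Vasp, which speeds filament growth at adhesions and at the leading edge, had 362 and 304 CPM in WT and 96.2 and 98.0 CPM in KO of experiment 1. In experiment 2 it had 699.8 and 552 CPM in WT and 172 and 234 CPM in KO. The highest KO library lay below the lowest WT library, and KO stood at 29.1% and 32.5% of WT. Its log2 fold changes were -1.79 (SE 0.09, adjusted p = 5.56e-06) and -1.62 (SE 0.21, adjusted p = 0.0149). Vcl, vinculin, which couples talin to filaments, had 126 and 99.6 CPM in WT against 53.5 and 56.5 CPM in KO of experiment 1 and 93.9 and 77.1 CPM in WT against 57.8 and 51.8 CPM in KO of experiment 2. For Vcl the log2 fold changes were -1.05 (SE 0.12, adjusted p = 0.000712) and -0.64 (SE 0.14, adjusted p = 0.039).

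Tln1, talin, and Fhl3, a LIM domain protein, were lower in experiment 1 at -0.32 and -0.40, and neither passed in experiment 2. Zyx, zyxin, and Lasp1, adhesion proteins with LIM domains, passed in neither experiment. Of the PDZ and LIM domain genes, which encode scaffolds on actin fibres, Pdlim5 had 139 and 139 CPM in WT and 208 and 184 CPM in KO of experiment 1, and 172 and 191 against 116 and 108 CPM in experiment 2. It rose and then fell, with log2 fold changes of 0.48 (SE 0.07, adjusted p = 0.000629) and -0.70 (SE 0.12, adjusted p = 0.0237). Pdlim7 had 10.5 and 11.6 CPM in WT against 8.40 and 10.9 CPM in KO of experiment 1 and 4.71 and 4.51 CPM in WT against 10.5 and 7.79 CPM in KO of experiment 2. Only the rise in experiment 2 passed, at 0.99 (SE 0.22, adjusted p = 0.0389). Pdlim1 rose in experiment 1 at 1.41, from under 1 CPM in WT. Vim, vimentin, the intermediate filament member, was lower in experiment 1 at -0.77 and had 0.65 in experiment 2 (adjusted p = 0.183), with an adjusted p of 0.0119 for the difference.

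**Figure D3:**
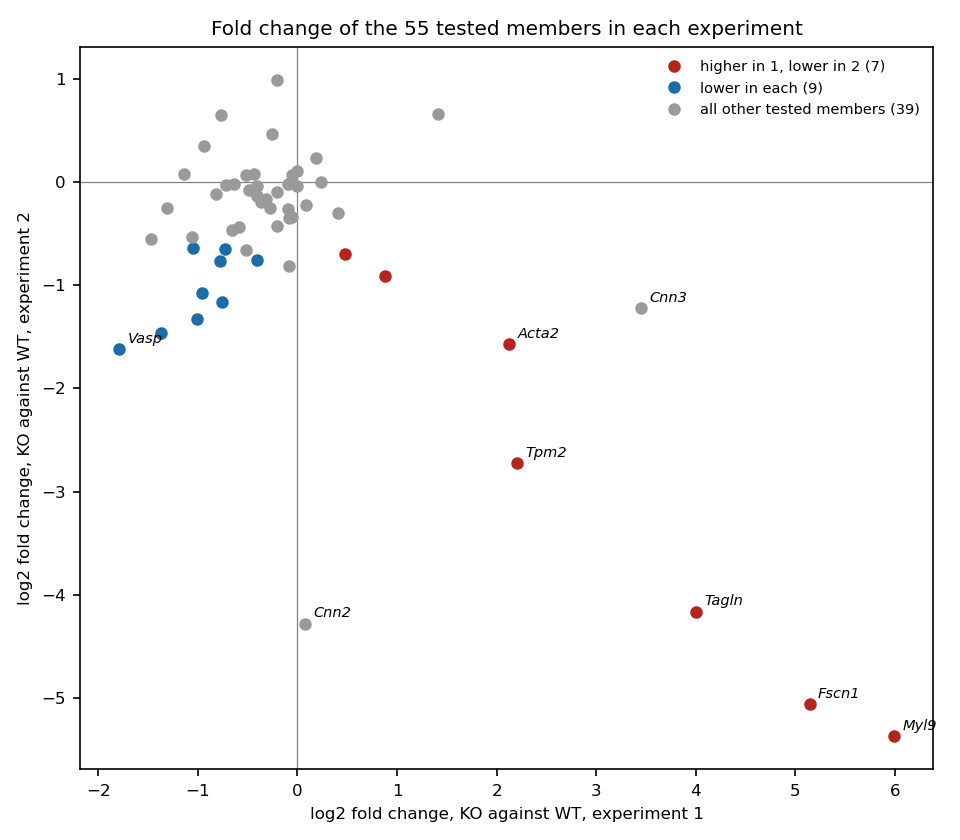
Log2 fold change of KO against WT in experiment 1 (x axis) and experiment 2 (y axis), 1 point per tested member. The 9 members lower in each experiment lie at the lower left, and the 7 that were higher in experiment 1 and lower in experiment 2 spread to the lower right as far as Myl9, whose fitted value in experiment 2 rests on KO libraries at 3 counts or fewer.

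Of the 8 genes of the smooth muscle subset, 4 were higher in KO of experiment 1 and lower in KO of experiment 2, a pattern that 3.23% of all genes tested had. These were Acta2, Tagln, Myl9 and Tpm2. Myl9 passed the filter only through the groups where it was high, at 24 and 21 counts in WT libraries 3 and 4 and 117 and 234 in KO libraries 5 and 6. Its place in this count was therefore partly fixed by the filter. Tpm1 passed in neither experiment, and Actg2, Cnn1 and Fhl1 were not tested. Tagln, SM22 alpha, had 0.344 and 0.645 CPM in WT and 7.16 and 8.56 CPM in KO of experiment 1, and 1.78 and 2.67 against 0.244 and 0 CPM in experiment 2. Tpm2, beta tropomyosin, had 0.664 and 0.792 CPM in WT against 3.08 and 3.67 CPM in KO of experiment 1 and 1.45 and 1.61 CPM in WT against 0.195 and 0.264 CPM in KO of experiment 2. Within each experiment the groups did not overlap, and all levels of Tagln and Tpm2 were below 9 CPM.

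The log2 fold changes of Tagln were 4.00 (SE 0.27, adjusted p = 1.32e-05) and -4.16 (SE 0.97, adjusted p = 0.0491), and those of Tpm2 were 2.21 (SE 0.23, adjusted p = 0.00012) and -2.72 (SE 0.36, adjusted p = 0.0148). The log2 fold change of Tagln, experiment 2, was -9.39 without KO library 7, which leaves KO library 8 at 0 counts, and -3.17 without KO library 8. Myl9, the light chain of smooth muscle, had 0.0246 and 0.117 CPM in WT and 3.16 and 5.84 CPM in KO of experiment 1, with a log2 fold change of 5.99 (SE 0.60, adjusted p = 0.000351). In experiment 2 it had 0.657 and 0.603 CPM in WT, while both KO libraries held 3 counts or fewer, so that WT was at least 8.69-fold higher than the floor of 3 counts per library. Cnn1, smooth muscle calponin, was at 3 counts or fewer in every library. Fhl1, a LIM domain protein of muscle, was at 5 counts or fewer. Fhl2, a LIM domain partner of SRF outside that subset, was untested under the filter but had 0.0492 and 0.235 CPM in WT and 4.43 and 5.32 CPM in KO of experiment 1, and 0.219 and 0.115 against 0.0975 and 0 CPM in experiment 2.

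Stromal markers moved with the rise in experiment 1. Of 10 such genes 9 were tested and 8 were higher in KO of experiment 1, beside 27.0% of all genes, with a median log2 fold change of 4.69 (Pdgfra 6.61, Col1a2 4.69), and Lum was at or near 0 throughout. In experiment 2 the count by edgeR was 0 in either direction, beside 8.29% of all genes lower and 7.52% higher, while Fbn1 and Postn were lower at an unadjusted p under 0.05 and by DESeq2. Their sum was 12.3 and 28.3 CPM in WT libraries 1 and 2 and 284 and 352 CPM in KO libraries 5 and 6. In experiment 2 the sum was 24.2 and 23.6 CPM in WT and 26.2 and 6.02 CPM in KO libraries 7 and 8. Of the 9 tested markers 8 had a log2 fold change below 0 there, and Fbn1, Postn and Sparc were lower in both KO libraries than in both WT libraries. Of 7 markers of smooth muscle and pericytes 3 were tested, and Pdgfrb alone of these rose, at 3.93 in experiment 1. Notch3, which was not tested, had 0 and 0.0880 CPM in WT and 1.00 and 1.02 CPM in KO of experiment 1, and at most 0.0287 CPM in experiment 2. Des, Myh11 and Rgs5 stood at or below 0.225 CPM in every library, with Rgs5 at 7 and 6 counts in KO libraries 5 and 6 and at 0 in every WT library. The sum of the 7 was 18.4 and 20.3 CPM in KO libraries 5 and 6 and between 2.36 and 4.68 CPM in the other 6. Endothelial markers summed to 164 and 190 CPM in KO of experiment 1 and to 89.2 and 69.8 CPM in WT, and to 105 and 67.1 CPM in KO of experiment 2 against 223 and 118 CPM in WT. Of 10 macrophage markers, 6 were higher and 3 lower in experiment 1, beside 27.0% and 28.1% of all genes, and 2 of each in experiment 2, beside 7.52% and 8.29%, with Csf1r at 0.82 and -1.28 and Adgre1, which encodes the antigen F4/80, the other way at -2.11 and 0.91. The part of these markers in the members' changes was not tested.

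**Figure D4:**
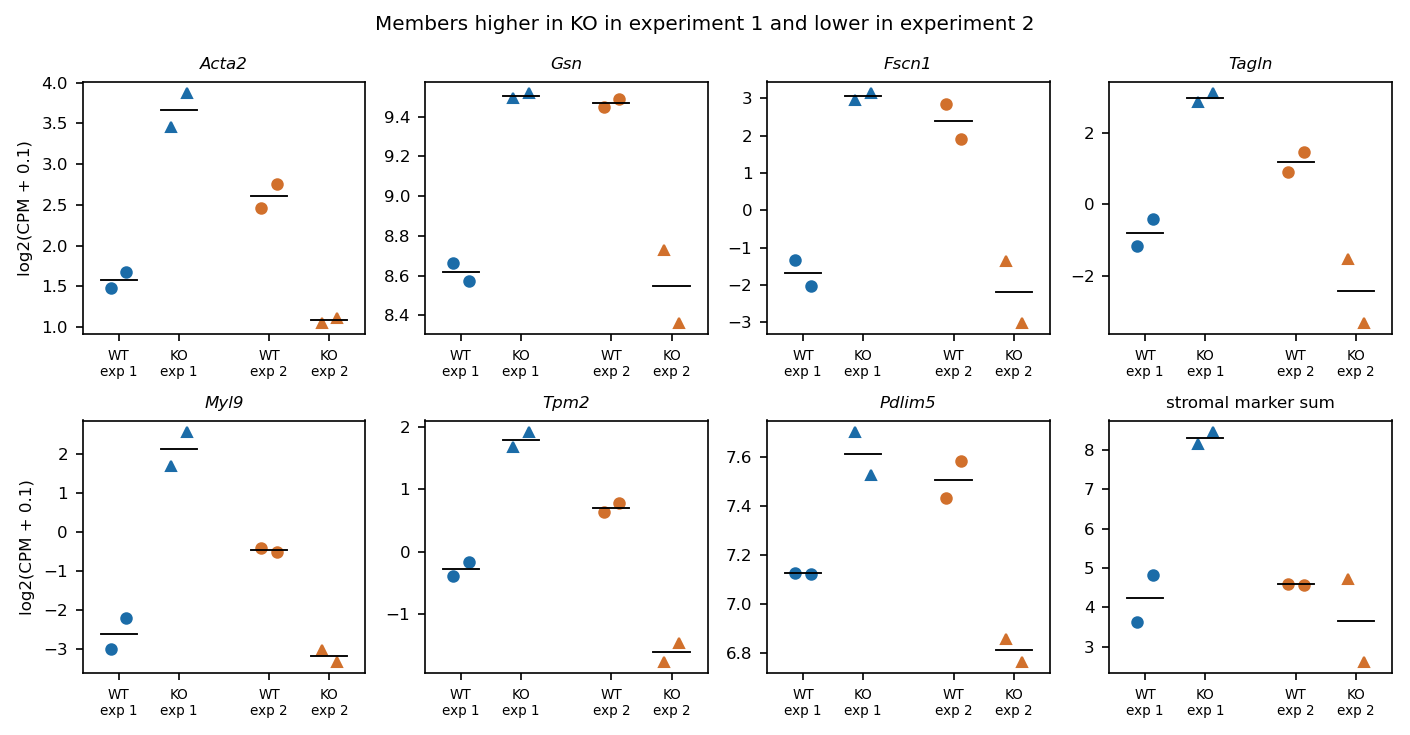
Log2(CPM + 0.1) by library (circles WT, triangles KO, bars at the mean of each pair) for the 7 members higher in KO in experiment 1 and lower in experiment 2, and for the sum of the 10 stromal markers. KO lies above WT in experiment 1 and below it in experiment 2 for all 7 genes. The stromal sum lies higher in KO in experiment 1, and in experiment 2 KO library 7 lies above and KO library 8 below both WT libraries.

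Of 32 other genes known as MRTF and SRF targets, outside the list above, 24 were tested. In experiment 1, 5 were lower and 12 higher in KO, beside 28.1% and 27.0% of all genes, and in experiment 2, 4 were lower and 1 was higher, beside 8.29% and 7.52%. Their median log2 fold change went from 0.45 in experiment 1 to -0.40 in experiment 2, and 13 of the 24 passed the interaction test, beside 41.6% of all genes. The 3 with the smallest p in experiment 1 were Cyr61 and Thbs1, both secreted matricellular proteins, and Mylk, the kinase of the myosin light chain. From low means of 0.434, 5.05 and 1.28 CPM in WT of experiment 1, their log2 fold changes were 4.88, 5.06 and 3.02. In experiment 2 these were -1.46, -0.94 and -0.72, with adjusted p of 0.173, 0.202 and 0.299. Filip1l and Itga5 were among the 3 with the smallest p in experiment 2. Itga5, the fibronectin receptor subunit, was lower in each experiment, at -1.11 and -1.12. Filip1l was lower in each as well, at -0.54 and -2.31, and these 2 of 24 targets compare with 2.25% of all genes. Fblim1, an adhesion protein with LIM domains, was the 1 target higher in each, at 0.65 (adjusted p = 7.00e-05) and 0.78 (adjusted p = 0.0244), beside 2.13% of all genes. Its KO libraries all lay above every WT library, beside 6.46% of all genes, and it was named after its values were seen. Srf itself had 35.4 to 41.7 CPM in WT and 27.0 to 33.0 CPM in KO, with every KO library below every WT library and an adjusted p of 0.0250 over both experiments.

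The calls that both experiments shared depended on the libraries of experiment 2, and all 9 were called without any 1 library of experiment 1. Ezr and Vasp remained lower in each without WT library 3, and Ezr, Myl12a, Vasp and Vcl did so without WT library 4. Actg1, Ezr and Tpm4 remained without KO library 7. Without KO library 8, the count of all genes lower in experiment 2 fell from 1195 to 110. Of the 20 member calls in experiment 2, Cnn2 was the one kept without each library in turn. In those fits and under 6 other settings each of the 9 members had a log2 fold change below 0 in both experiments. Vasp ranged from -1.91 to -1.66 in experiment 1 and from -1.86 to -1.42 in experiment 2.

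With no filter beyond 1 count, Actg1, Cnn2, Fscn1 and Tagln were not called in experiment 2. Fscn1, Myl9, Tagln and Tpm2 could not be tested with at least 10 counts in every library, and DESeq2 gave no adjusted p for Myl9 in experiment 2.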

How the data were processed

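Bulk RNA-seq libraries were prepared with a kit for stranded mRNA, and the deposited files hold, for each experiment, raw counts per gene symbol and normalized counts (a signal, scaled by a factor per library), both made by the authors. The submitters' processing notes name STAR 2.7.0f, Subread 1.6.4, featureCounts, DESeq2 1.22.1 and the build GRCm38, and the annotation and the setting for shared reads are not given in the sources used here. The normalized counts were left out, because their factors were set within each experiment.

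Counts were tested in edgeR 4.0.16 (R 4.3.3), with TMM scaling, filterByExpr by genotype over 8 libraries, a robust quasi-likelihood fit and Benjamini-Hochberg adjustment over 14418 genes at 0.05. The filter left genes holding 99.878% to 99.947% of the counts of a library. KO was compared with WT within each experiment (2 against 2 libraries), over both with experiment as a term, and by the product of experiment and genotype. Standard errors (SE) were derived from the fold change and its F statistic, and CPM used TMM library sizes. A group with 3 counts or fewer in every library was treated as a floor. Replicate libraries differed by more than counting noise (chi-square per gene 12.5 to 81.9).

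Values in every library are given for the actins, the smooth muscle subset, members past the threshold in the same direction in both experiments, the 8 with the smallest interaction p, and the 3 largest changes in each direction and experiment. Other MRTF and SRF targets are named by the 3 smallest p in each experiment, of which 1 is not reported here. The members and lists were chosen with earlier results of these data known. Alternatives were DESeq2 1.42.0, upper-quartile scaling, other filters, 1 fit of 4 groups, an adjusted p under 0.01, no experiment term, and each library left out in turn. Positions and exon lengths came from GENCODE on GRCm38, which calls Mkl1 by another symbol, and promoters from RefSeq. Of 21 members with similar pseudogenes (at least 90% identity), 1 had such a pseudogene listed by symbol, at 0 counts. The scripts were tested on simulated data.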

Additional observations from a re-analysis of the deposited data

Results flagged for a closer look

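The change with genotype differed between the experiments, by the interaction test of edgeR at an adjusted p under 0.05, for 13 of the 25 members given with values in every library. Of these 25, 8 were chosen for the smallest interaction p, so the count was partly fixed by that choice, and 41.6% of all genes passed the same test. The values below are log2 fold changes of KO against WT in experiment 2 minus those in experiment 1. Among genes at low levels, Fscn1 was at -10.2, Tagln at -8.17, Tpm2 at -4.93 and Cnn3 at -4.68. The fitted value of Myl9, -11.4, gives no size that can be ranked with these, because its KO group in experiment 2 held 3 counts or fewer per library. For the log2 fold change of Tagln, interaction values were -13.4 without KO library 7 and -7.18 without KO library 8, which held 0 counts of it. Cnn2 followed at -4.36, Acta2 at -3.71, Gsn at -1.80 and Pdlim5 at -1.19. Myl12a, which was lower in both experiments, was the more reduced in experiment 2 by a difference of -0.35, a call lost without any 1 library of experiment 1 and with no filter. For Pdlim7, Lima1 and Cfl2 the difference was the other way, at 1.18, 0.91 and 0.72. What sets the experiments apart was not tested, and the libraries of an experiment share whatever else was done together.

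Among 50 groups of 4 libraries looked at for a value far from the others, 1 stood out, Cnn1 in KO library 5 at 0.0540 CPM with the other 3 KO libraries at 0. That is a count of 2, at the floor, and 3 values tied at 0 make the gap as large as it can be relative to the range. The cutoff is passed in about 1 of 20 groups where 4 values come from a single normal distribution. Each group here pooled both experiments, so that rate need not apply.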

How the results depend on the processing

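The counts in experiment 1 stayed within 1.5 times under every alternative run, and those in experiment 2 did not. At an adjusted p under 0.01, members lower in experiment 2 numbered 1 and members higher 0, 15 members differed between the experiments, and 5 were lower over both. Leaving out 1 library gave between 1 and 9 members lower in experiment 2, with 0 higher in each of those fits, and a median log2 fold change of -0.39 to -0.25. For both experiments together it gave 6 to 14 lower and 0 to 1 higher, and without the experiment term 0 members were lower (4 genes of all tested were called). Members higher over both numbered 2 with DESeq2, 2 with upper-quartile scaling and 1 with at least 10 counts in every library. Upper-quartile scaling moved the median of all genes in experiment 1 by 0.10 on the log2 scale, the median of the members to -0.22, and the log2 fold change of Tpm1, experiment 1, to 0.0477 from below 0, and it ended the calls of Capzb, Cfl2 and Tmsb10 there. Members lower in each experiment numbered 13 with DESeq2, 11 with no filter and 15 in 1 fit of 4 groups. Under these settings 1657, 1526 and 2418 of all genes were lower in experiment 2, beside 1195 in the main fit. In experiment 1 they numbered 3652, 4597 and 3031, beside 4056. The cause of these shifts was not tested, beyond the fewer libraries or the stricter threshold by construction. The replicates of experiment 2 spread more than those of experiment 1 (SD of their log2 ratios 0.45 and 0.46, beside 0.29 and 0.31). The part of this spread in the smaller number of calls there was not tested. With 1 library of a group left out, its lone library is assumed to vary like the others. No paired analysis was possible because the libraries of the genotypes share no replicate number.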
